A study of Mus musculus with 6 samples.

Results

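Expression of 10 genes of the hypoxia-inducible factor (HIF) pathway was examined in adipocytes made from 3T3-L1 cells, a mouse embryonic fibroblast line used as a model of fat cell formation. The genes were taken by name from a table of 45706 genes. They are the transcription factor subunits Hif1a and Epas1, the prolyl hydroxylases Egln1, Egln2 and Egln3, and the HIF targets Bnip3, Bnip3l, Vegfa, Ankrd37 and Ddit4. All 10 were measured and passed the filter on low counts that 11440 genes passed. Both groups carried a stable, puromycin-selected lentiviral short hairpin RNA (shRNA). The 3 scrambled control cultures, whose genotype is given as WT, carried a scrambled hairpin, and the 3 RBMS1 knockdown cultures (RBMS1KD) carried a hairpin against Rbms1, which encodes an RNA-binding protein. All 6 cultures were treated with IBMX, insulin, dexamethasone and rosiglitazone and were harvested on day 7. The study describes the 3 samples of a group as biological replicates. The sources used here do not give the oxygen level of these cultures, how many hairpins or transduced pools stood behind the knockdown samples, or whether the 3 cultures of a group came from 1 transduced pool, so p-values measure the spread between these samples.

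HIF is a dimer of an unstable alpha subunit, HIF-1alpha (Hif1a) or HIF-2alpha (Epas1), and the stable partner ARNT. When oxygen is plentiful, the prolyl hydroxylases PHD1 (Egln2), PHD2 (Egln1) and PHD3 (Egln3) mark the alpha subunit for capture by the VHL ubiquitin ligase and destruction. When oxygen is short, the alpha subunit persists and HIF binds hypoxia response elements, whose core reads RCGTG, near genes of glycolysis, blood vessel growth and mitochondrial clearance. Egln1 and Egln3 are themselves HIF targets, which gives the pathway a negative feedback loop. The alpha subunits are controlled mainly as proteins, which RNA counts do not show. In fat tissue the pathway is known for its activity in expanding depots and for driving Vegfa, the main growth factor for blood vessels.

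The core of the response element was looked for in the promoters of the members because the behaviour of the targets is described below. RefSeq promoter sequences (GRCm38.p6, from 250 bases before to 50 bases after each start) were matched by symbol for 8 members, with no sequence held for Epas1 or Bnip3l. The letters ACGTG, on either strand, stood in at least 1 promoter of each of these 8 genes and in 19.6% of 32851 promoters of the same length. The second form of the core, GCGTG, stood in 32.4% of all promoters, and either form stood in 43.8%. A match describes these letters only. The windows below show 1 match for each gene with 12 bases on each side, in the orientation of the gene, with the core in capitals (CACGT is the core read on the opposite strand).

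Bnip3: cgcacgcgccgcACGTGccacacgctccc
Egln1: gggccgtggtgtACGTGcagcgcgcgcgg
Egln3: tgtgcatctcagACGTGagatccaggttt
Ankrd37: cagtgtttgggtACGTGaggccgcagcgg
Ddit4: agaacgttgcgaACGTGcgcccggtgcct
Vegfa: ggagtgcgtgccCACGTcagagagcaaca
Egln2: agcctcctgtcaACGTGcggttcgcgcac
Hif1a: tggctgagagcaACGTGggctggggtggg

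These windows lie at chr7:138909597-138909625 (Bnip3), chr8:124949306-124949334 (Egln1), chr12:54204087-54204115 (Egln3), chr8:45999840-45999868 (Ankrd37), chr10:59951941-59951969 (Ddit4), chr17:46025358-46025386 (Vegfa), chr7:27166834-27166862 (Egln2) and chr12:73907785-73907813 (Hif1a). Hif1a is on the plus strand and the others are on the minus strand. The motif began 107 bases before the start in Bnip3, 229 before it in Egln3, 68 before it in Egln1, 6 before it in Ankrd37, 187 before it in Ddit4, 211 before it in Vegfa, 48 before it in Egln2 and 70 before it in Hif1a. The Bnip3 match is part of the palindrome CACGTG, which other factors also recognise and which counts as a match on each strand. Vegfa and Egln2 each have a pair of annotated promoters, and the ACGTG match was in the second promoter of Vegfa and in the first of Egln2. Ankrd37, Egln2 and Hif1a held further ACGTG matches at positions other than those shown. Counted by gene, with any of its promoters, ACGTG stood in 21.8% of 27025 genes, in 11 of the 18 glycolytic HIF targets that had a sequence (61.1%), and in 11 of 21 other HIF targets (52.4%). In the lists that are not of HIF targets, it stood in 2 of 14 genes for partners and turnover of HIF (14.3%), 4 of 14 for BNIP3 and mitophagy partners (28.6%), none of 9 for the VEGF family and receptors and 3 of 13 for DDIT4 and mTORC1 (23.1%).

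Sequencing depth and the state of the cells set the frame for these values. The total count per sample was 3142695 to 5985167 in the scrambled control and 6173305 to 11073098 in RBMS1KD, and an undetected gene could lie at up to 0.220 to 1.49 CPM (counts scaled to a common library size) in a single sample, for counting error only. The share of counts in genes derived from ribosomal RNA was 43.0% in scrambled control replicate 2 and 8.12% to 17.8% elsewhere. The targeted gene, Rbms1, was at 113, 102 and 99.6 CPM in scrambled control replicates 1, 2 and 3 and at 49.2, 61.4 and 84.0 CPM in RBMS1KD replicates 1, 2 and 3. The groups did not overlap, and the log2 fold change was -0.69 (SE 0.20), which did not pass across all genes (adjusted p = 0.185, edgeR). The 8 adipocyte markers together were at 20359 to 23590 CPM in the scrambled control and at 19523, 11145 and 13187 CPM in RBMS1KD replicates 1, 2 and 3. Lpl was the largest part of this sum, at 12275, 11958 and 14512 CPM in the scrambled control and 10210, 5350 and 5595 CPM in RBMS1KD. Cd36 alone of these markers had a log2 fold change above 0 (0.72, adjusted p = 0.183, edgeR). Its levels were 613 to 788 CPM in the scrambled control and 900 to 1299 CPM in RBMS1KD. The preadipocyte and fibroblast markers, of which 6 of 7 were tested, summed to 2654 to 4033 CPM in the scrambled control and to 1115, 2931 and 3192 CPM in RBMS1KD replicates 1, 2 and 3. Of 5 endothelial markers none passed the filter (summed level 0.172 to 1.99 CPM, with Tie1 and Cldn5 at 0 in every sample), and of 5 macrophage markers 1 passed (1.44 to 7.63 CPM, with Adgre1 and Ptprc at 0). Of 5 muscle markers, Des alone passed and the other 4 were at 0. None of the marker genes passed the test.

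None of the 10 HIF pathway genes differed between RBMS1KD and the scrambled control at an adjusted p of 0.1 or less (edgeR), where 1.22% of the 11440 tested genes did (0.909% lower in RBMS1KD). The estimates were mostly below 0 (9 of 10 members, against 49.6% of all tested genes), with a median log2 fold change of -0.33 against 0.0044 over all tested genes. The median of the members was -0.81 without RBMS1KD replicate 1 and -0.17 without replicate 3. With library sizes alone it was 0.025, where the median over all tested genes was 0.37. At an unadjusted p under 0.05, 2 of the 10 members passed, Vegfa and Ankrd37, as did 12.4% of all genes. DESeq2 also called none of the 10, with 3.20% of 13454 genes called. The spread of the RBMS1KD replicates differed from member to member, with no clear break. The SD of log2 CPM there was 0.110 to 0.312 for Hif1a, Epas1 and Egln2, and 0.424 to 1.58 for Egln1, Egln3 and the 5 targets, where the median over all tested genes was 0.260. In the scrambled control the SD was below the median over all genes (0.244) for 8 of the 10 members, the exceptions being Ddit4 (0.247) and Ankrd37 (0.604).

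**Figure D1:**
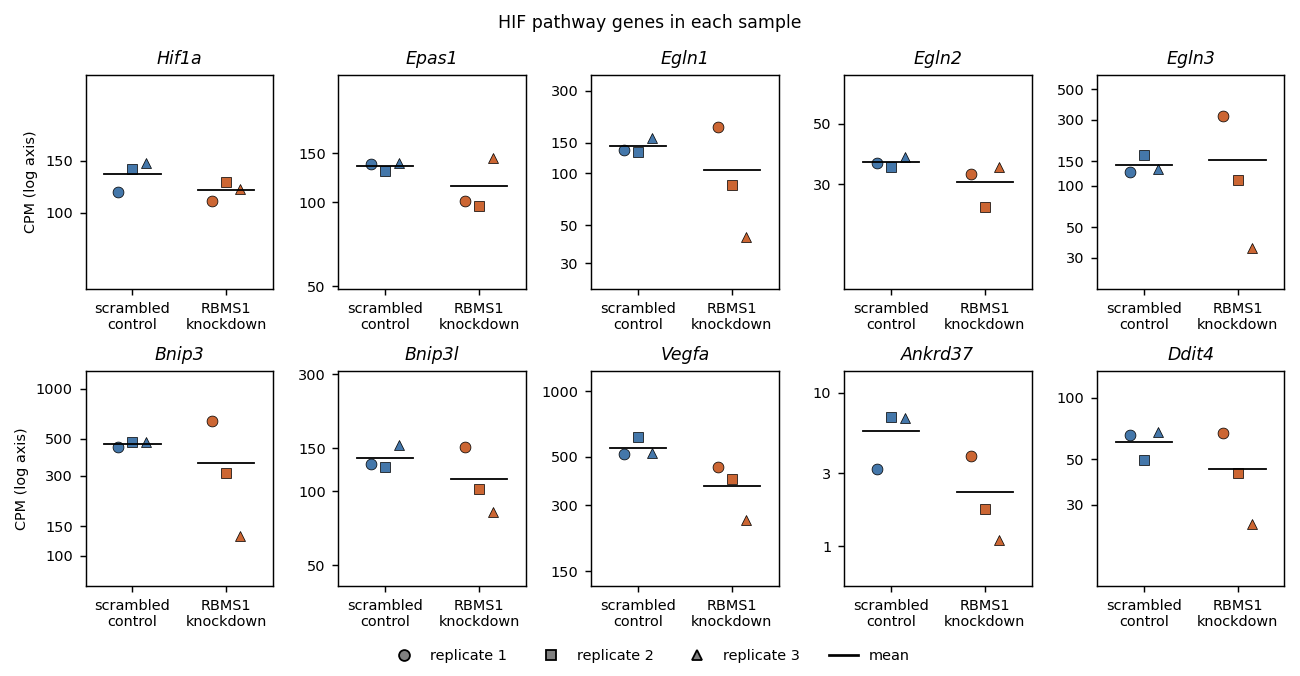
CPM of each of the 10 genes (log axis, with its own range in each panel) in the 3 scrambled control and the 3 RBMS1KD samples; symbols mark the replicate number and lines the group mean. The RBMS1KD replicates of Egln3 run from 318 to 35.3 CPM and those of Bnip3 from 637 to 132 CPM, on both sides of the controls, while those of Hif1a stay between 109 and 127 CPM.

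For the alpha subunits no difference between the groups was detected, and whether the levels were equal was not tested. Hif1a (chr12:73901375-73947530) was at 118, 141 and 148 CPM in scrambled control replicates 1, 2 and 3 and at 109, 127 and 120 CPM in RBMS1KD replicates 1, 2 and 3. The groups overlapped, and the log2 fold change was -0.19 (95% interval -0.53 to 0.15; adjusted p = 0.667, edgeR). Epas1 (chr17:86753700-86833410) was at 138, 130 and 139 CPM in the scrambled control and at 101, 97.3 and 144 CPM in RBMS1KD. Here RBMS1KD replicate 3 was above every control and the other two were below them. Its log2 fold change was -0.25 (-0.65 to 0.15; adjusted p = 0.625, edgeR). Within a sample, where scaling cancels, the ratio of Hif1a to Epas1 counts was 0.858, 1.09 and 1.06 in the scrambled control and 1.08, 1.31 and 0.836 in RBMS1KD. No difference in this ratio was detected (two-sided exact permutation p = 0.9, Benjamini-Hochberg adjusted 0.9 over 3 ratios, where 0.1 is the smallest p that 3 samples against 3 allow). Hif1a shares 330 exonic bases with an antisense gene and 148 with a gene on its own strand, so some reads of these genes may not be told apart.

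Among the hydroxylases, Egln2 stood apart from the HIF-inducible pair. Egln2 (chr7:27158658-27166802) was at 35.9, 34.7 and 37.9 CPM in the scrambled control and at 32.8, 24.7 and 34.6 CPM in RBMS1KD. All RBMS1KD samples were below all controls, although the nearest pair, at 34.7 and 34.6 CPM, was nearly level, and the log2 fold change was -0.24 (-0.64 to 0.16; adjusted p = 0.642, edgeR). Of the 10 members, 2 had groups that did not overlap, both lower in RBMS1KD, beside 18.5% of all tested genes in either direction and 9.55% in that direction.

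Egln1, the main oxygen sensor of the pathway, was tight in the controls and scattered in RBMS1KD. Egln1 (chr8:124908587-124949324) was at 136, 133 and 159 CPM in the scrambled control and at 186, 85.6 and 42.4 CPM in RBMS1KD replicates 1, 2 and 3. Replicate 1 was thus above every control and the other two below every control. The log2 fold change was -0.45 with an interval of -1.39 to 0.49 (adjusted p = 0.721, edgeR). Egln1 lies on chromosome 8, whose 624 tested genes had a median log2 fold change of -0.38. The median was 0.021 over the 10816 other tested genes pooled, which does not show the offsets of single other chromosomes. This chromosome offset was -0.36, -0.39 and -0.35 in RBMS1KD replicates 1, 2 and 3, and with each sample's chromosome medians removed the log2 fold change of Egln1 was -0.055.

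Egln3, the hydroxylase most responsive to HIF in many cells, had the widest spread. Egln3 (chr12:54178981-54203860) was at 126, 166 and 132 CPM in the scrambled control and at 318, 109 and 35.3 CPM in RBMS1KD replicates 1, 2 and 3. The level in RBMS1KD replicate 1 was 9.01 times that in replicate 3 (95% exact interval 8.16 to 9.97, for counting error only), whereas the highest and lowest control differed 1.32-fold. The SD of log2 CPM was 0.211 in the scrambled control and 1.58 in RBMS1KD, and the latter was higher than that of 99.1% of tested genes. The log2 fold change between the groups was 0.13, with an interval from -1.19 to 1.44 (adjusted p = 0.956, edgeR), so a change of over 2-fold in either direction was within the error. The ratio of Egln3 to Egln1 within a sample was 0.928, 1.25 and 0.832 in the scrambled control and 1.71, 1.27 and 0.834 in RBMS1KD, again with no difference detected (exact permutation p = 0.4, adjusted 0.9).

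The paired mitochondrial receptors Bnip3 and Bnip3l, which tether mitochondria to the autophagy machinery, showed the same order of the RBMS1KD samples with unequal width. Bnip3 (chr7:138890836-138909519) was at 445, 477 and 482 CPM in the scrambled control and at 637, 314 and 132 CPM in RBMS1KD replicates 1, 2 and 3. The controls differed 1.08-fold and the RBMS1KD samples 4.83-fold (4.57 to 5.10). No RBMS1KD sample lay within the range of the controls, and the log2 fold change was -0.37 (-1.35 to 0.60; adjusted p = 0.781, edgeR). Bnip3l (chr14:66985239-67008877) was at 129, 126 and 155 CPM in the scrambled control and at 151, 102 and 82.4 CPM in RBMS1KD. The RBMS1KD samples differed 1.83-fold (1.68 to 1.99) and the log2 fold change was -0.29 (-0.78 to 0.21; adjusted p = 0.651, edgeR). The ratio of Bnip3 to Bnip3l was 3.44, 3.80 and 3.12 in the scrambled control and 4.22, 3.07 and 1.60 in RBMS1KD replicates 1, 2 and 3 (exact permutation p = 0.6, adjusted 0.9). The estimated counts of both genes were not all whole, as happens where Salmon divides reads between genes, and Bnip3 shares 504 exonic bases with an antisense gene.

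Vegfa and Ankrd37 had the lowest p-values of the members. Vegfa (chr17:46016993-46032369) was at 518, 620 and 519 CPM in the scrambled control and at 449, 397 and 257 CPM in RBMS1KD replicates 1, 2 and 3. Every RBMS1KD sample was below every control, and the log2 fold change was -0.59 (-1.08 to -0.094; edgeR p before adjustment over all genes 0.0245, adjusted p = 0.313). Ankrd37, a small ankyrin repeat protein (chr8:45996902-46005707), was at 3.21, 6.95 and 6.88 CPM in the scrambled control and at 3.88, 1.75 and 1.10 CPM in RBMS1KD. These values rest on 20, 14 and 40 counts and on 27, 15 and 15 counts, the lowest of the 10 genes, and control replicate 1 was below RBMS1KD replicate 1. Its log2 fold change was -1.35 (-2.56 to -0.13; edgeR p before adjustment 0.0334, adjusted p = 0.349). Ankrd37 also lies on chromosome 8, where its log2 fold change with chromosome medians removed was -0.95. It shares 349 and 57 exonic bases with Lrp2bp and Ufsp2 on the opposite strand, and the strand setting of the counting is not given in the sources used here.

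Ddit4 (REDD1), a brake on the growth kinase complex mTORC1, was at 65.9, 49.6 and 67.8 CPM in the scrambled control and at 67.4, 43.0 and 24.1 CPM in RBMS1KD (chr10:59949669-59951834). RBMS1KD replicate 1 was at the level of the highest controls, replicate 2 was just below the lowest and replicate 3 was well below it, a 2.80-fold difference within the group (2.43 to 3.23). The log2 fold change was -0.45 (-1.17 to 0.27; adjusted p = 0.613, edgeR).

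Per kilobase of merged exon, the scrambled control levels ran from Bnip3 at 207 ± 8.85 CPM per kb (SD, n = 3) through Vegfa at 129 ± 13.7 and Egln3 at 53.1 ± 8.04 to Egln1 at 39.7 ± 4.01. Bnip3l (35.4 ± 4.09) and Ddit4 (34.8 ± 5.69) followed, then Epas1 (24.2 ± 0.90), Hif1a (23.0 ± 2.65), Egln2 (12.9 ± 0.56) and Ankrd37 (3.69 ± 1.39). In the controls, the ranges of neighbours overlapped for Egln1 and Bnip3l, for Bnip3l and Ddit4, and for Epas1 and Hif1a, and were separate for the other pairs. The mean levels in RBMS1KD stood in the same order, from 159 ± 113 CPM per kb for Bnip3 to 1.46 ± 0.94 for Ankrd37, but there only Hif1a and Egln2, and Egln2 and Ankrd37, had ranges that did not overlap.

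The spread between replicates was thus unlike between the groups. The SD of log2 CPM was larger in RBMS1KD than in the scrambled control for 9 of the 10 members, Hif1a being the exception (0.110 against 0.171), and for 52.4% of all tested genes. The median SD over the members was 0.155 in the scrambled control and 0.590 in RBMS1KD, where all tested genes had medians of 0.244 and 0.260. In 7 of the 10 members (Egln1, Egln3, Bnip3, Bnip3l, Vegfa, Ankrd37 and Ddit4), RBMS1KD replicate 1 was the highest, replicate 2 was in between and replicate 3 was the lowest. That order held in 20.0% of all tested genes, and in the same 7 of 10 members when library sizes alone were used for scaling. The members were gathered with attention to this spread, so the count is a description. Replicate 3 was not the lowest for Hif1a, Epas1 or Egln2, whose replicate 1 to replicate 3 ratios were 0.909, 0.701 and 0.948.

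**Figure D2:**
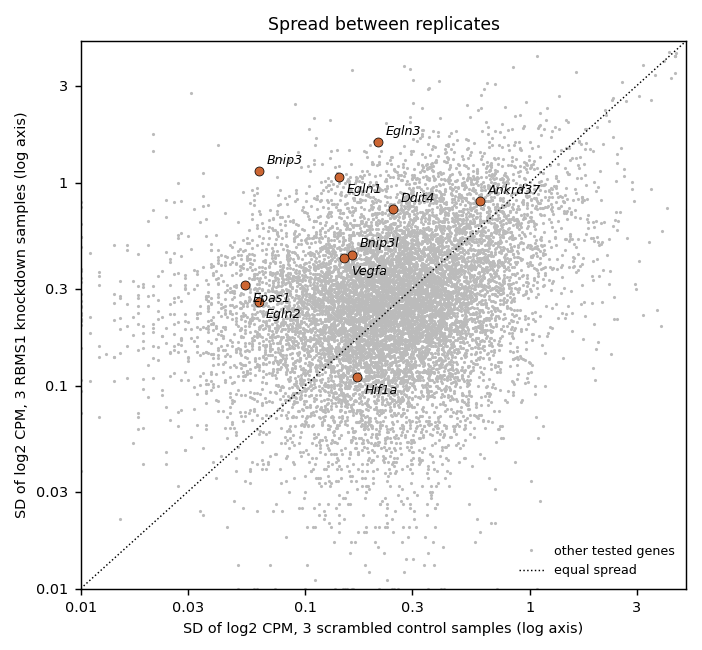
SD of log2 CPM (prior count 2) over the 3 RBMS1KD samples against that over the 3 scrambled control samples, both on log axes, for the 10 named genes and, in grey, all other tested genes; values under 0.01 are drawn at 0.01 and the dotted line marks equal spread. Egln3 (0.211 and 1.58), Bnip3 (0.063 and 1.14) and Egln1 (0.142 and 1.06) lie far above the line, and Hif1a lies below it.

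The samples at the ends of this order also differed in other measures. RBMS1KD replicate 1, the highest for the 7 genes, had the lowest Rbms1 level (49.2 CPM), the lowest sum of preadipocyte and fibroblast markers (1115 CPM) and the highest sum of adipocyte markers in its group (19523 CPM). Replicate 3, the lowest for the 7 genes, had the highest Rbms1 level in its group (84.0 CPM), the highest sum of preadipocyte and fibroblast markers (3192 CPM) and the largest library. Col1a1 made up 2646 CPM of that sum, and of the RBMS1KD samples replicate 2 was the highest for Pdgfrb, Thy1, Ly6a and Dlk1 and also had the lowest sum of adipocyte markers (11145 CPM). With 3 samples, the part of these measures in the order was not tested. In such bulk RNA, fewer cells of a type and less RNA per cell cannot be told apart.

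The group comparison depended on which RBMS1KD sample was included. Without RBMS1KD replicate 1, 4 of the 10 members were called, all lower in RBMS1KD, in a comparison that called 5.94% of 11724 genes (3.63% lower). They were Egln1 (log2 fold change -1.15, adjusted p = 0.0456, edgeR), Bnip3 (-1.07, 0.0869), Vegfa (-0.75, 0.0829) and Ankrd37 (-1.96, 0.0869). Egln3 was then at -0.97 (adjusted p = 0.203, edgeR), the opposite sign of its value with all samples. When the chromosome medians were removed as well, a setting chosen after seeing the data, none of the 10 was called among 4.52% of genes called, with Egln1 at -0.76 (adjusted p = 0.197), Bnip3 at -1.05 (0.114), Vegfa at -0.71 (0.116) and Ankrd37 at -1.58 (0.179, edgeR). The estimates of Bnip3 and Vegfa thus moved little, and those of the chromosome 8 genes Egln1 and Ankrd37 moved more. Without RBMS1KD replicate 3, none was called (0.997% of all genes were), and Bnip3 was at 0.029, Egln3 at 0.60, Egln1 at -0.067 and Vegfa at -0.38 on the log2 scale. Ddit4 was at -0.86 (adjusted p = 0.103, edgeR) without replicate 1 and at -0.14 without replicate 3, and Bnip3l was at -0.56 (adjusted p = 0.113, edgeR) and -0.10. Epas1 was at -0.16 without replicate 1, -0.13 without replicate 2 and -0.45 without replicate 3. Without any other single sample none of the 10 was called, in comparisons that called few genes. Over all genes, 21 of 11729 were called without scrambled control replicate 1, 12 of 11854 without replicate 2 and 32 of 11813 without replicate 3. Leaving out RBMS1KD replicate 2 gave 38 of 11669.

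**Figure D3:**
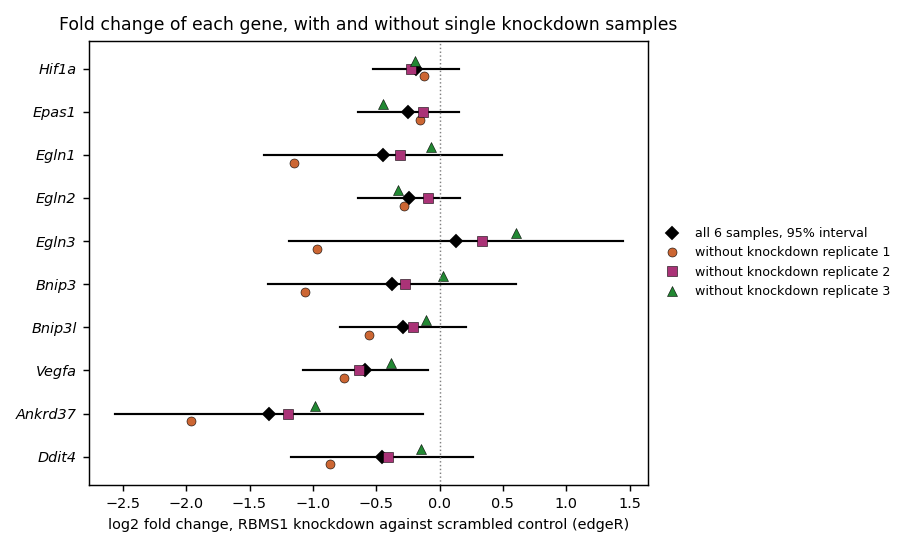
log2 fold change of each gene, RBMS1KD against scrambled control (edgeR), with all 6 samples (diamond, with its 95% interval) and without each RBMS1KD replicate in turn (circle, square and triangle for replicates 1, 2 and 3). Leaving out replicate 1 moves Egln3 from 0.13 to -0.97 and leaving out replicate 3 moves it to 0.60, while Hif1a and Egln2 stay between -0.33 and 0.

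The wider pathway was described with 6 lists holding 105 further genes, of which 89 were tested. Of these, 1 gene was called, where 1.22% of all tested genes were, and it was higher in RBMS1KD. The lists differed in how their genes lay across the RBMS1KD samples. The order of replicate 1 over replicate 2 over replicate 3 held in 14 of 16 tested glycolytic HIF targets and in 16 of 24 other HIF targets. It held in 4 of 14 genes for HIF partners and turnover, 1 of 17 for BNIP3 and mitophagy partners, none of 6 for the VEGF family and receptors, and 2 of 12 for DDIT4 and mTORC1, where 20.0% of all tested genes had it.

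None of the 14 tested partners and turnover genes was called, and their median log2 fold change was -0.025. The groups did not overlap for 5 of the 14 (35.7%, against 18.5% of all tested genes), of which 2 were higher and 3 lower in RBMS1KD. Eloc, listed as Tceb1, a subunit of the VHL ligase, had the smallest p with 24.2, 25.8 and 23.7 CPM in the scrambled control and 30.9, 33.0 and 30.6 CPM in RBMS1KD (log2 fold change 0.36, adjusted p = 0.397, edgeR), or 0.12 with chromosome medians removed. Elob, listed as Tceb2, the partner of Eloc, was at 68.0, 85.9 and 81.4 CPM and at 67.1, 55.2 and 65.6 CPM (-0.32, adjusted p = 0.452, edgeR). Both genes were among those 5, one on each side. The other members of the 5 were Hif1an, which hydroxylates the alpha subunits at a site that blocks coactivator binding (log2 fold change 0.29, adjusted p = 0.476, edgeR), and the coactivators Crebbp (-0.26, 0.511) and Ep300 (-0.22, 0.564). Arnt, the shared partner of the alpha subunits, was at 88.5, 61.0 and 77.8 CPM in the scrambled control and at 78.5, 72.8 and 73.5 CPM in RBMS1KD. Vhl was at 33.3, 30.3 and 30.1 CPM and at 43.4, 33.3 and 28.7 CPM. Arnt, Vhl, Hif1an, Crebbp and Ep300, like Ldha, Pgk1, Ero1l and Gbe1 below, were chosen after their values were seen. Only 3 of the 14 genes had a larger SD in RBMS1KD than in the scrambled control, against 52.4% of all tested genes.

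Of the 6 lists, the glycolytic targets had the order of Bnip3 and Egln3 most often. None of 16 tested genes was called, where 1.22% of all tested genes were. The groups overlapped for all 16, where 18.5% of all tested genes had groups that did not overlap. A larger SD in RBMS1KD was seen in 15 of the 16, and in 52.4% of all tested genes. Relative to the mean of the controls, the median gene of this list was at 0.20, -0.46 and -1.28 on the log2 scale in RBMS1KD replicates 1, 2 and 3, and between -0.092 and 0.11 in the controls. Aldoa, a glycolytic aldolase, was at 3181, 3229 and 2565 CPM in the scrambled control and at 2631, 1571 and 1084 CPM in RBMS1KD replicates 1, 2 and 3 (log2 fold change -0.76, adjusted p = 0.391, edgeR). Pfkp, a phosphofructokinase subunit, was at 90.2, 143 and 118 CPM and at 101, 90.6 and 45.3 CPM (-0.57, adjusted p = 0.471, edgeR). The exceptions to the order were Hk1 and Pfkfb4. Ldha, which makes lactate, was at 911, 871 and 840 CPM and at 896, 456 and 287 CPM. Pgk1, which makes ATP in glycolysis, was at 831, 636 and 653 CPM and at 979, 488 and 266 CPM. Without RBMS1KD replicate 1, 8 genes of this list were called, all lower, where 5.94% of all genes were called (3.63% lower), with a median of -0.80 over the 16 genes, and without replicate 3 the median was 0.055 and none was called (0.997% of all genes were).

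Among 24 other HIF targets tested, Bhlhe41, a transcriptional repressor of the circadian clock, was called and was higher in RBMS1KD. It was at 11.9, 6.45 and 9.12 CPM in the scrambled control and at 23.1, 25.2 and 32.6 CPM in RBMS1KD replicates 1, 2 and 3. Each RBMS1KD sample was above each control, and the log2 fold change was 1.53 (SE 0.26, adjusted p = 0.0453, edgeR). Bhlhe41 did not have the order of the 7 members, since replicate 3 was its highest. It was not called without scrambled control replicate 1 (adjusted p = 0.104), 2 (0.152) or 3 (0.214) or without RBMS1KD replicate 2 (0.134, edgeR). Rora, a nuclear receptor, was lower in every RBMS1KD sample, at 82.6, 95.8 and 78.3 CPM against 42.1, 23.8 and 10.4 CPM, and missed the threshold (log2 fold change -1.75, SE 0.40, adjusted p = 0.111, edgeR). It was called with DESeq2 (adjusted p = 0.00072), with limma-voom (0.088), with no filter on low counts (0.034), without RBMS1KD replicate 1 (0.0067) and without replicate 3 (0.052, edgeR for the last 3). The widest of the tested list genes among the RBMS1KD samples was Ero1l (Ero1a), an oxidase that forms disulfide bonds in the endoplasmic reticulum, at 1102, 1004 and 1199 CPM in the scrambled control and 2526, 815 and 151 CPM in RBMS1KD replicates 1, 2 and 3. Gbe1, the glycogen branching enzyme, was at 139, 142 and 156 CPM and at 183, 67.2 and 30.2 CPM. The fold changes of this list had a median of -0.16, and 16 of 24 were below 0 (66.7%, against 49.6% of all tested genes). The groups did not overlap for 4 of the 24 (16.7%, against 18.5% of all tested genes). Without RBMS1KD replicate 1 the median was -0.43, with 4 genes called lower and 1 higher, where 5.94% of all genes were called. Without replicate 3 the median was 0.11, with 1 gene called lower and 1 higher, where 0.997% of all genes were called.

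**Figure D4:**
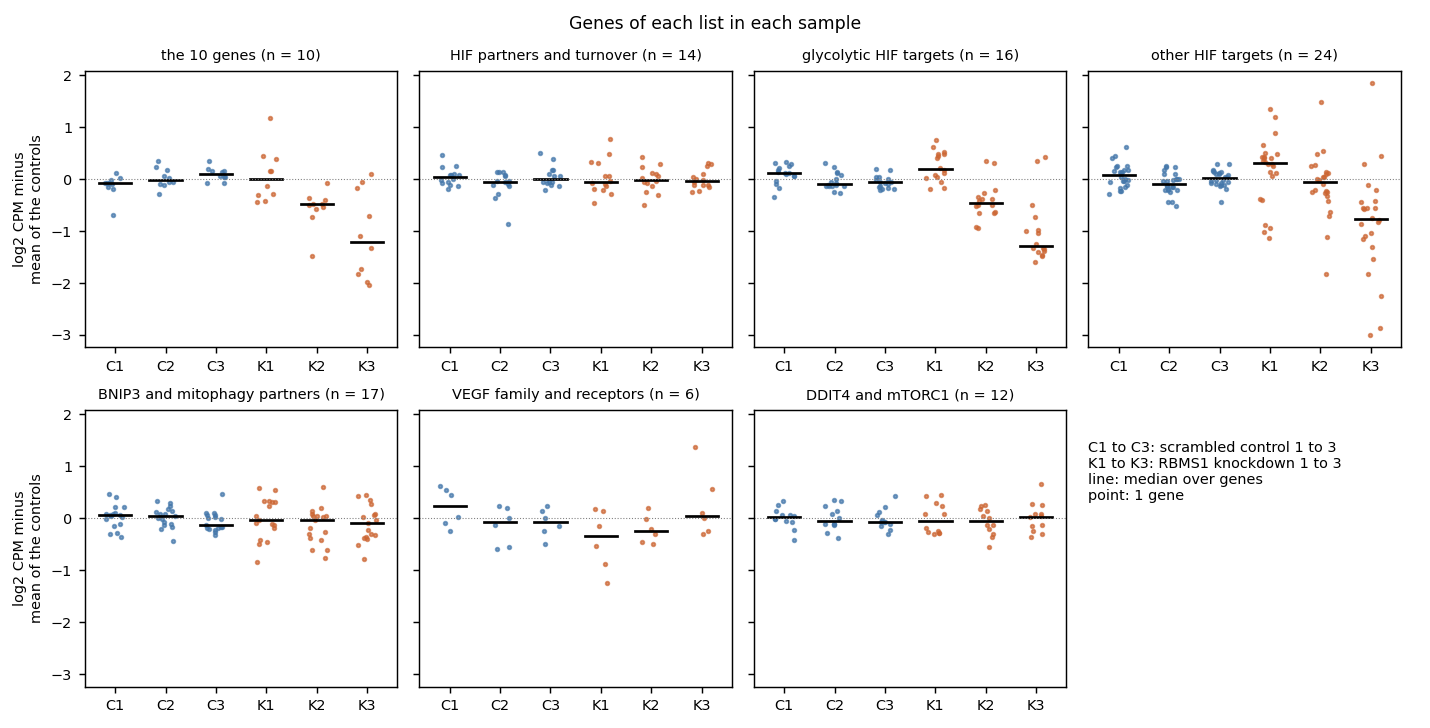
log2 CPM (prior count 2) of each tested gene minus its mean over the 3 scrambled control samples, by sample, for the 10 named genes and the 6 lists; points are genes, lines are medians over the genes of a list, and n is the number of tested genes. In the glycolytic list the median runs from 0.20 in RBMS1KD replicate 1 to -1.28 in replicate 3, while in the partners and turnover list it stays between -0.057 and -0.0095 in the RBMS1KD samples.

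Among the functional neighbours of the targets, the order held in Phb2 of the mitophagy list and in Tsc1 and Sesn2 of the mTORC1 list. Of 17 tested BNIP3 and mitophagy partners none was called, with a median log2 fold change of -0.053. Fkbp8, a mitochondrial receptor for autophagy, was at 147, 142 and 126 CPM in the scrambled control and 97.5, 81.5 and 105 CPM in RBMS1KD (-0.55, adjusted p = 0.173, edgeR). Fkbp8 lies on chromosome 8, and with chromosome medians removed it was at -0.16 (adjusted p = 0.794, edgeR). Gabarapl1, which couples cargo to autophagosomes, was at 87.5, 88.8 and 87.4 CPM and at 110, 134 and 119 CPM (0.46, adjusted p = 0.209, edgeR), or 0.28 with chromosome medians removed. These were the 2 genes of the 17 whose groups did not overlap in CPM (11.8%, against 18.5% of all tested genes).

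In the VEGF family, 6 of 9 genes were tested and none was called. The receptor genes Kdr and Flt4 had no count in any sample. Vegfd, listed as Figf, was at 53.5, 25.8 and 43.5 CPM in the scrambled control and at 16.4, 28.5 and 31.8 CPM in RBMS1KD replicates 1, 2 and 3 (-0.69, adjusted p = 0.403, edgeR). Nrp1, a coreceptor, was at 158, 187 and 221 CPM and at 101, 152 and 159 CPM (-0.46, adjusted p = 0.407, edgeR). Nrp1 also lies on chromosome 8, and with chromosome medians removed it was at -0.061 (adjusted p = 0.954, edgeR). In both Vegfd and Nrp1, RBMS1KD replicate 1 was the lowest of its group, the reverse of Vegfa.

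Of the 12 tested genes that act with Ddit4 on mTORC1 none was called, with a median log2 fold change of -0.020, 95% intervals that reached from -0.83 to 0.70 and 2 genes whose groups did not overlap (16.7%, against 18.5% of all tested genes). Tsc1, part of the complex through which DDIT4 acts, was at 28.4, 42.2 and 31.1 CPM in the scrambled control and at 45.7, 40.1 and 35.4 CPM in RBMS1KD (0.26, adjusted p = 0.646, edgeR). Rptor, an mTORC1 subunit, was at 64.9, 70.0 and 62.5 CPM and at 57.9, 60.2 and 55.4 CPM (-0.18, adjusted p = 0.647, edgeR).

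The genes whose pattern was most like that of 2 members were found by the root mean square difference of mean-centred log2 CPM over the 6 samples, among 11439 genes. Egln1 was the nearest of all genes to Bnip3 (difference 0.101, against a median of 0.785 over all genes), followed by Prkaa2 (0.148) and Fam162a (0.154). Ddit4 was 34th nearest to Bnip3 and Egln3 was 49th, whereas Hif1a, Egln2 and Epas1 were at 4226, 4090 and 7165. The ranks of the members from Vegfa were otherwise ordered, with Bnip3l at 361, Ddit4 at 954, Hif1a at 2185, Egln2 at 3152, Egln1 at 3661, Bnip3 at 4033, Epas1 at 5237, Ankrd37 at 7038 and Egln3 at 9311. Prkaa2, a catalytic subunit of the energy sensor AMPK, was at 18.8, 14.9 and 17.9 CPM in the scrambled control and at 21.9, 12.4 and 5.14 CPM in RBMS1KD replicates 1, 2 and 3. Fam162a, a mitochondrial protein and known HIF target, was at 76.1, 67.5 and 80.2 CPM and at 99.0, 45.6 and 25.5 CPM. Nearest to Vegfa were Fam110c (0.0704), Vldlr (0.0758) and 3010026O09Rik (0.0833), against a median of 0.487. Vldlr, a lipoprotein receptor in the list of other HIF targets, was at 193, 212 and 190 CPM in the scrambled control and at 151, 127 and 92.4 CPM in RBMS1KD (log2 fold change -0.68, adjusted p = 0.169, edgeR). Vldlr was called with DESeq2 (adjusted p = 0.0669) and without RBMS1KD replicate 1 (adjusted p = 0.0313, edgeR). These likenesses rest on 6 samples that differ in depth and are descriptions.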

How the data were processed

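RNA of 6 cultures was sequenced as stranded, ribosomal RNA-depleted libraries. The authors trimmed reads with Trim Galore 0.6.7, used STAR 2.7.10a for alignment to GRCm38, and deposited estimated counts per gene from Salmon 1.9.0, without normalization. The annotation release is not given in the sources used here. Estimated counts were rounded and tested with edgeR 4.0.16 in R 4.3.3 (filterByExpr, TMM, glmQLFit and glmQLFTest on condition) with Benjamini-Hochberg adjustment over 11440 genes, and called at an adjusted p of 0.1 or less. CPM are counts scaled by the TMM-adjusted library, and log2 CPM used a prior count of 2. Total counts were 3142695 to 11073098, which sets the precision of low genes. Positions and exon lengths came from GENCODE vM21. The step was tested on simulated data with the same dispersion in both groups and no chromosome offset. That test therefore does not cover the unequal spread and the chromosome 8 offset described here.

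The named genes are the 10 members, Rbms1, the called genes and the 2 smallest p of each of 6 lists, and the 3 genes nearest to Bnip3 and to Vegfa. Arnt, Vhl, Hif1an, Crebbp, Ep300, Ldha, Pgk1, Ero1l and Gbe1, and genes named without values, are not part of the rule and were picked with their values in view. Members and lists were chosen with earlier results of these data known. Alternatives were DESeq2 1.42.0, limma-voom (limma 3.58.1), other scalings and filters, unrounded counts, a replicate block, removed chromosome medians or GC content and length trends, and single samples left out. No sample was excluded.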

Additional observations from a re-analysis of the deposited data

How the results depend on the processing

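The number of HIF pathway members called was 0 with all 6 samples and under 18 of 19 alternatives, and 0 to 4 when single samples were left out. The number of list genes called, 1 with all samples, was 3 with DESeq2, 2 with limma-voom, 2 with no filter, 0 with the replicate block, alone or with the GC content and length trend removed, and 0 to 14 without single samples (15 without RBMS1KD replicate 1 and chromosome medians). Over all genes, the 140 calls became 430 with DESeq2, 268 with no filter, 73 with chromosome medians removed, 39 with the replicate block, 27 with that block and the trend removed, 12 to 696 without single samples, and 530 without RBMS1KD replicate 1 and chromosome medians. Same-numbered samples did not deviate together (correlations -0.144, 0.078 and -0.028), so the block joins samples that share only a number. With library sizes alone, which shift the median of all genes by 0.37, 33.3% of 126 calls were lower in RBMS1KD in place of 74.3%, and Hif1a (0.20), Epas1 (0.14), Egln2 (0.14) and Bnip3l (0.068) turned positive, though below that shift. Egln3 turned negative with limma-voom (-0.34), with the replicate block (-0.41), with that block and the trend removed (-0.37), without RBMS1KD replicate 1 (-0.97) and with chromosome medians removed as well (-1.05), within a range of -0.97 to 0.60 without single samples alone, and Bnip3 ranged from -1.07 to 0.029, the latter without RBMS1KD replicate 3. The ratio of Hif1a to Epas1 (log2 difference 0.085) ranged up to 0.25 and was -0.024 without scrambled control replicate 1 and -0.068 without RBMS1KD replicate 2, and that of Bnip3 to Bnip3l (-0.33) ranged from -0.63 to 0.065, the latter without RBMS1KD replicate 3. Rbms1 ranged from -0.92 to -0.52 without single samples and was called without RBMS1KD replicate 3 (adjusted p = 0.0708, edgeR). Beyond the lost or gained samples and genes, the cause was not tested. Of the members, depth was lowest for Ankrd37, at 14 to 40 counts in a sample.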
